A study of Homo sapiens with 16 samples.

Results

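The genes described here are 35 genes of glycolysis and of the response to low oxygen, measured in the human colon cancer line HCT116 when the long noncoding RNA NORAD was targeted for depletion and in wild-type cells. They were taken by name from a list of glycolytic enzymes, transporters and hypoxia-induced genes, and all 35 were among the 19836 genes tested, out of 31496 genes to which transcripts were summed. Polyadenylated RNA of 16 libraries was sequenced by a strand-specific protocol, and the groups were knockdown at 24 h (n = 2), wild type at 24 h (n = 2), knockdown at 48 h (n = 3), wild type at 48 h (n = 3), knockdown at 96 h (n = 3) and wild type at 96 h (n = 3). Knockdown was by CRISPR interference, in which an inactive Cas9 joined to a repressor is guided to a promoter, induced with 0.5 µg/ml doxycycline. The same treatment text stands on every library, and the labels say neither whether wild-type cells carried the CRISPR interference system or received doxycycline, nor whether the lines were single clones. They also do not say whether replicates were separate cultures, so the p-values reflect only how these libraries vary, and that variation may be technical.

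Glycolysis splits glucose to pyruvate in the cytosol. Glucose enters through GLUT transporters, hexokinases trap it as a phosphate, phosphofructokinase commits it, aldolase splits it, and the lower enzymes harvest ATP. Lactate dehydrogenase then turns pyruvate to lactate, which leaves through monocarboxylate transporters, or the pyruvate dehydrogenase complex sends it to mitochondria, a step that PDK1 inhibits. When oxygen is low the HIF subunit HIF1A is no longer hydroxylated and degraded, and HIF raises the RNAs of most of these enzymes together with genes of pH control, vessel growth and mitophagy. HIF1A itself is controlled mainly at the level of its protein, which these libraries do not measure. Colon cancer lines use glycolysis heavily even in air.

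The promoters of 3 listed genes are shown, that of LDHA because it was lower in knockdown at all 3 times, and those of ANKRD37 and ALDOC because they are among the genes with the deepest falls in time. The letters ACGTG and GCGTG are the core of the hypoxia response element. Each sequence is the 300 bases from 250 before to 50 after the gene start in the RefSeq table on GRCh38.p14, read 5′ to 3′ on the strand of the gene. Capitals mark ACGTG or GCGTG on either strand, and CACGTG counts once on each strand.
LDHA (chr11:18394313-18394612, plus strand): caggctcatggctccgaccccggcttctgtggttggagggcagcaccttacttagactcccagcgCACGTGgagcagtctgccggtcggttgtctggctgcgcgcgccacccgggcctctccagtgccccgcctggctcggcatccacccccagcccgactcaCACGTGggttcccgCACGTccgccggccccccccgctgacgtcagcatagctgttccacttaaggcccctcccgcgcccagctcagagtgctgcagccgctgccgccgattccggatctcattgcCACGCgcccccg
ANKRD37 (chr4:185396591-185396890, plus strand): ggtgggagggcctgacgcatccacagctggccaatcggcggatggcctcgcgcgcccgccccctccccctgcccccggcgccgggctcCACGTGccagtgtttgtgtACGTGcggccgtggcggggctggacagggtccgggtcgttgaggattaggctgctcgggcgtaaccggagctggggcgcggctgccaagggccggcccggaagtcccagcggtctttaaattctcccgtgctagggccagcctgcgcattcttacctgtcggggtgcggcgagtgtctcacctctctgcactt
ALDOC (chr17:28576846-28577145, minus strand): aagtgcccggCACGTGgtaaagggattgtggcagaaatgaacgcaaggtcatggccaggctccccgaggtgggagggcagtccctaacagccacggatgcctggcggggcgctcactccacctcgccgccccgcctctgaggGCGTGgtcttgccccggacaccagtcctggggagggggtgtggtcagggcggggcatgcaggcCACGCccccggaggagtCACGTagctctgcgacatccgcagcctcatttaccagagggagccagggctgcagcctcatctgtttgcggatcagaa

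LDHA holds 5 matches to ACGTG, in 2 CACGTG palindromes and 1 single match on the minus strand, and 1 match to GCGTG. ANKRD37 holds 3 matches to ACGTG and ALDOC holds 3, with 2 to GCGTG. Of the other genes lower in knockdown at all 3 times, PGAM1 holds no match in its window and ENO1 holds 2, both to GCGTG. BNIP3 holds 2 to ACGTG and 4 to GCGTG. Of the 35 listed genes 30 matched the table, and SLC2A3, VEGFA, HILPDA, NDRG1 and BNIP3L did not. Either motif stood in 22 of the 30 promoters (73.3%), against 48.4% of the 35116 promoters of the same length. ACGTG alone stood in 12 (40%), against 21.4%. The 35116 promoters were not matched to the listed genes for expression or base content. No match was found in SLC16A3, HK1, PFKM, PFKP, TPI1, PGAM1, PDK1 or EGLN3 in this window. A match is a string of letters and not a measured binding site.

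Total estimated counts lay between 28391784 and 51853876 per library. NORAD averaged 208.7 CPM (counts scaled to library size, after TMM normalisation) in the libraries labelled knockdown and 190.0 CPM in wild type at 24 h, 21.5 CPM in knockdown and 157.8 CPM in wild type at 48 h, and 72.9 CPM in knockdown and 182.8 CPM in wild type at 96 h. NORAD was thus not lowered at 24 h, and the 24 h comparison is given by its labels. Summed CPM of 7 epithelial markers lay between 4691 and 7978 in the 6 groups, while 5 leukocyte markers together stayed at or below 1.21 CPM and the 6 fibroblast markers summed to 34.6 to 78.4 CPM, nearly all of it COL1A1. In the bulk RNA, fewer cells of a kind and less RNA per cell cannot be told apart. At 24 h, replicate 1 labelled knockdown was above replicate 2 in all 35 listed genes, against 49.3% of all genes, and at 48 h knockdown replicate 3 was the highest of its group in 27 listed genes, against 41.7% of all genes.

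**Figure D1:**
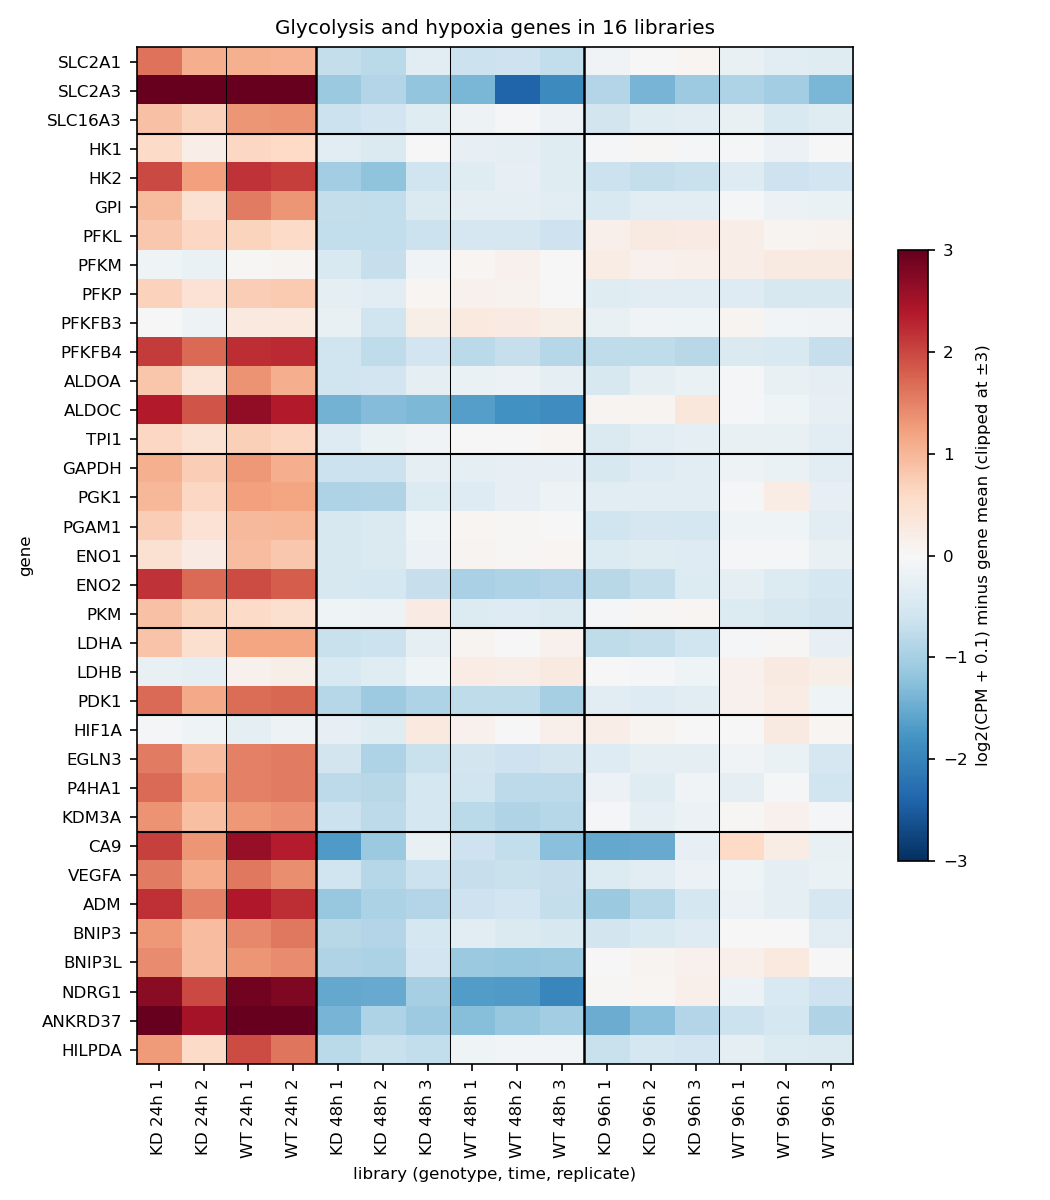
Rows are the 35 listed genes ordered by role and columns the 16 libraries. Colour is log2(CPM + 0.1) minus the mean of the gene over the 16 libraries, clipped at ±3. The 4 libraries at 24 h are the warm block on the left, and SLC2A3, NDRG1, ALDOC and ANKRD37 have the strongest contrast.

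TPM, a transcript abundance per length recomputed from the estimated counts, allows levels to be compared between genes. In wild type at 48 h GAPDH, which makes 1,3-bisphosphoglycerate, was highest, with a mean of 3005 ± 116 TPM (SD, n = 3). ENO1 averaged 1317 ± 25.6 TPM and ALDOA 1197 ± 84.0 TPM, and their ranges, 1295 to 1345 TPM and 1136 to 1293 TPM, only just separate. TPI1 (865 ± 30.9 TPM), PKM (738 ± 38.6 TPM), LDHA (710 ± 25.0 TPM) and LDHB (630 ± 23.1 TPM) came next, and PKM and LDHA overlapped. Transporters and hypoxia-induced genes stood lower, with SLC2A1, the main glucose transporter GLUT1, at 106 ± 13.3 TPM, HIF1A at 44.7 ± 2.02 TPM and VEGFA at 15.8 ± 0.867 TPM. SLC2A3, the transporter GLUT3, was lowest at 0.395 ± 0.143 TPM.

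The largest pattern among the listed genes was in time. In wild-type cells 31 of 35 listed genes fell at 48 h relative to 24 h and none rose, when 22.1% of all 19836 genes fell, 22.5% rose and 44.6% passed in either direction (edgeR quasi-likelihood test, Benjamini-Hochberg adjusted p under 0.05). At an unadjusted p under 0.05 in edgeR 1 listed gene was higher, and DESeq2 also called 1, HIF1A (adjusted p = 0.0455). The median log2 fold change was -1.733 over the listed genes and -0.005 over all genes tested. Estimated counts of the 35 genes were 1.502% to 1.526% of the matched counts of a wild-type library at 48 h, against 3.79% to 4.07% at 24 h. GAPDH alone was 0.439% to 0.453% at 48 h, against 1.203% to 1.366% at 24 h. The 24 h libraries differ from the others in time and in any handling that went with it, and these cannot be told apart.

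SLC2A3, NDRG1, ANKRD37 and ALDOC had the lowest log2 fold changes of the 35 genes in this comparison. SLC2A3 had 1.37, 0.622 and 0.910 CPM in wild type at 48 h, against 51.7 and 48.4 CPM in wild type at 24 h, a log2 fold change of -5.71 ± 0.31 SE (adjusted p = 1.08e-08, edgeR). SLC2A3 has a near-identical copy, SLC2A14, and reads may have been divided between them. NDRG1, a stress-response gene induced by hypoxia, had 108, 107 and 87.9 CPM in wild type at 48 h, against 2562 and 2378 CPM in wild type at 24 h, with a log2 fold change of -4.62 ± 0.23 SE (adjusted p = 6.82e-09, edgeR). ANKRD37, a HIF target with ankyrin repeats, had 3.58, 3.97 and 4.22 CPM in wild type at 48 h, against 108 and 85.0 CPM in wild type at 24 h, a change of -4.62 ± 0.23 SE (adjusted p = 3.2e-09, edgeR). Wild-type levels at 48 h were thus 1.93%, 4.07% and 4.06% of those at 24 h for SLC2A3, NDRG1 and ANKRD37. CA9, the membrane carbonic anhydrase used as a marker of hypoxia, had 0.819, 0.757 and 0.496 CPM in wild type at 48 h, against 8.55 and 7.20 CPM in wild type at 24 h. ADM, which encodes the vessel-dilating peptide adrenomedullin, had 43.1, 44.3 and 40.3 CPM in wild type at 48 h, against 354 and 309.9 CPM in wild type at 24 h. Log2 fold changes were -3.51 ± 0.45 SE (adjusted p = 1.21e-05, edgeR) for CA9 and -2.96 ± 0.20 SE (adjusted p = 8.29e-08, edgeR) for ADM. In each of these 5 genes every library at 48 h was below every library at 24 h.

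Among isoenzymes of glycolysis ALDOC, ENO2, HK2, PFKFB4 and LDHA had lower log2 fold changes than their partners, a difference that was not itself tested. ALDOC, the aldolase of brain and hypoxic cells, had 22.3, 20.0 and 19.3 CPM in wild type at 48 h, against 447 and 366 CPM in wild type at 24 h and a log2 fold change of -4.31 ± 0.14 SE (adjusted p = 5.97e-14, edgeR). ALDOA, the main aldolase, had a log2 fold change of -1.44. The values were -2.82 for ENO2 and -0.81 for ENO1, and -2.44 for HK2 and -0.91 for HK1. PFKFB4, one of the enzymes that make the allosteric activator of phosphofructokinase, was at -3.01. Its relative PFKFB3 did not pass, at -0.06 ± 0.14 SE (adjusted p = 0.784, edgeR). LDHA fell, with -1.11 ± 0.12 SE (adjusted p = 1.44e-07, edgeR), while LDHB, the lactate dehydrogenase subunit of aerobic tissues, was at 0.07 ± 0.09 SE (adjusted p = 0.569, edgeR) and did not pass. PFKM (0.01) and HIF1A (0.32, edgeR adjusted p = 0.0945) were the other two listed genes that did not pass.

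The prolyl hydroxylase EGLN3, which marks HIF for degradation, fell with a log2 fold change of -2.13, the collagen hydroxylase P4HA1 with -2.27 and the histone demethylase KDM3A with -2.20. VEGFA, the vessel growth factor, fell with -2.18, the mitophagy receptor BNIP3 with -1.93 and its relative BNIP3L with -2.50. The smallest of the 31 falls was that of TPI1, the triose phosphate isomerase, at -0.66. The cells labelled knockdown followed a like course: every library at 48 h was below every library at 24 h for 31 listed genes and above for none, against 27.9% and 32.1% of all genes, with a median log2 CPM difference of -1.679. The corresponding counts in wild type were 32 below and 2 above, against 33.3% and 33.1% of all genes.

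**Figure D2:**
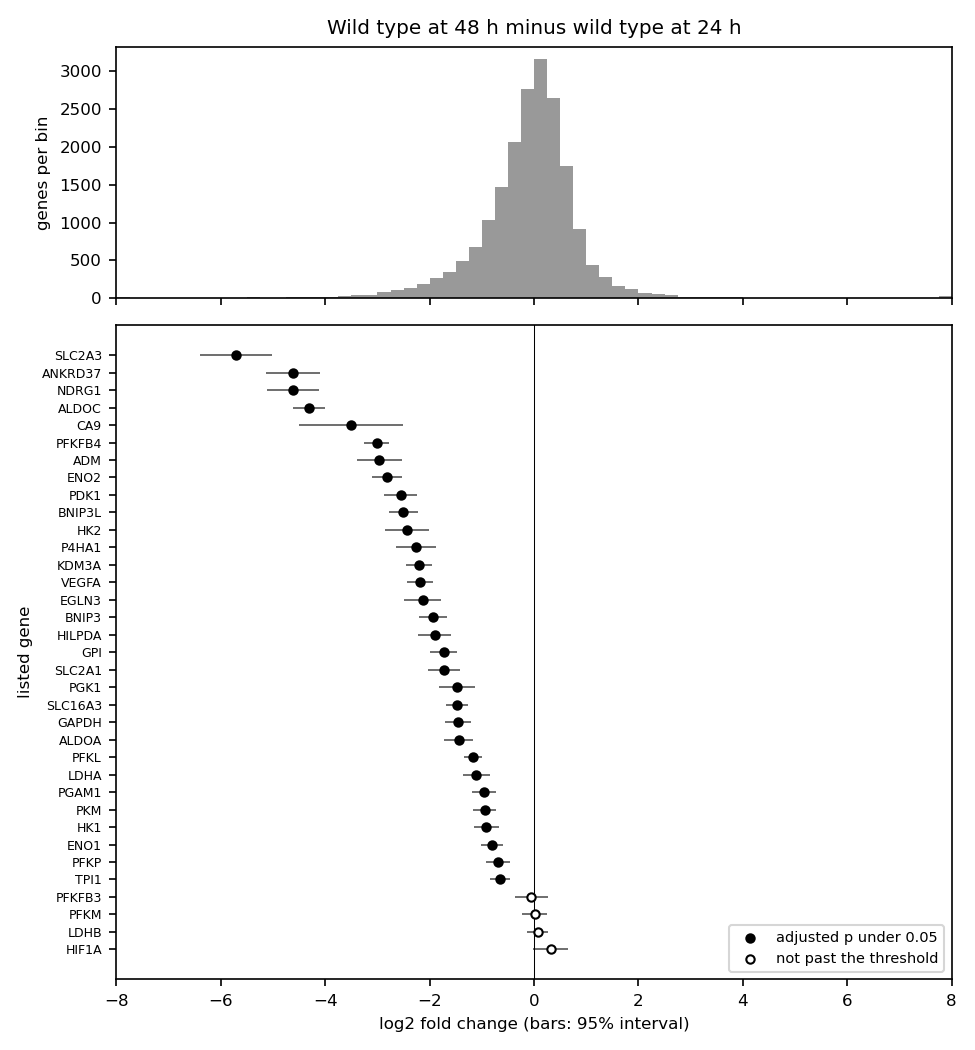
The upper panel counts all 19836 tested genes in bins of log2 fold change (width 0.25, values beyond ±8 in the end bins), wild type at 48 h minus wild type at 24 h. The lower panel gives the fold change of each listed gene with its 95% interval, filled where the adjusted p is under 0.05. SLC2A3 lies lowest at -5.71, and LDHB, PFKM, PFKFB3 and HIF1A lie near 0.

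Between 48 h and 96 h part of this pattern turned. In wild type 13 listed genes were higher at 96 h than at 48 h and 3 lower, when 23.7% of all genes were higher, 22.7% lower and 46.4% either. Every library at 96 h was above every library at 48 h in 20 listed genes and below in 8, against 29.7% and 28.5% of all genes. Genes of the hypoxia response made up 7 of the 13 rises (7 of 12 rose and none fell), and the glycolysis genes the other 6 of 23, with 3 falls. NDRG1 had 304, 252 and 223 CPM in wild type at 96 h, against 108, 107 and 87.9 CPM in wild type at 48 h. BNIP3L had 50.3, 55.6 and 45.5 CPM in wild type at 96 h, against 21.0, 20.5 and 20.7 CPM in wild type at 48 h. ALDOC had 69.2, 64.7 and 60.0 CPM in wild type at 96 h, against 22.3, 20.0 and 19.3 CPM in wild type at 48 h. In these 3 genes the times did not overlap. Log2 fold changes were 1.37 ± 0.19 SE (adjusted p = 7.66e-05, edgeR) for NDRG1, 1.28 ± 0.11 SE (adjusted p = 1.66e-08, edgeR) for BNIP3L and 1.66 ± 0.12 SE (adjusted p = 3.01e-09, edgeR) for ALDOC. PDK1 rose with 0.93, KDM3A with 0.91, PFKL, the liver-type phosphofructokinase, with 0.66, ENO2 with 0.52 and VEGFA with 0.49. Wild-type levels at 96 h stayed below those at 24 h in these 8 genes: NDRG1 at 96 h stood at 10.5% of its wild-type level at 24 h, ALDOC at 15.9% and BNIP3L at 42.9%. PFKP, the platelet-type phosphofructokinase, fell with a log2 fold change of -0.54, TPI1 with -0.27 and SLC16A3 with -0.22. The TPI1 fall held in 7 of 9 other settings and that of SLC16A3 in 2 of 9, and with abundance-dependent scaling they were at 0.0031 and 0.0258.

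The counts of 13 higher and 3 lower became 20 and 2 with total-count scaling, 21 and 1 with abundance-dependent scaling, 20 and 1 with a filter at 10 CPM, and 20 and 9 in a fit on these 2 groups alone. Without wild-type replicate 3 at 48 h, or without wild-type replicate 1 or 2 at 96 h, 8 listed genes were higher at 96 h. The 3 falls became 5 without replicate 1 labelled knockdown at 24 h or knockdown replicate 2 at 48 h, 6 without knockdown replicate 3 at 48 h, and 1 without wild-type replicate 2 at 48 h. Calls of PFKP, NDRG1, BNIP3L, ALDOC, ENO2, VEGFA, KDM3A, PFKL and PDK1 held under every setting and left-out library tried.

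Knockdown and wild type were compared within each time. At 24 h 9 listed genes were lower in the libraries labelled knockdown and none higher, when 12.4% of all genes were lower, 5.14% higher and 17.6% either. At an unadjusted p under 0.05 in edgeR 2 listed genes were higher there, and DESeq2 called 1, PKM (adjusted p = 0.048). At 48 h 14 were lower and 4 higher in knockdown, when 18.5% of all genes were lower, 14.8% higher and 33.2% either. At 96 h 5 were lower and 1 higher, when 5.15% of all genes were lower, 5.35% higher and 10.5% either. The median log2 fold change of the 35 genes was -0.313, -0.179 and -0.130 at 24 h, 48 h and 96 h, beside -0.020, 0.063 and -0.008 for all genes tested. With abundance-dependent scaling it was -0.108, -0.028 and -0.130, beside -0.009, 0.023 and -0.002 for all genes. With total-count scaling it was -0.107, -0.046 and -0.131, beside 0.187, 0.203 and -0.009. The listed-gene median at 24 h and 48 h thus depended on the scaling. Knockdown libraries lay below every wild-type library of their time in 22, 17 and 14 listed genes at the 3 times, against 32.9%, 20.3% and 15.6% of all genes, and above in 3, 7 and 5, against 26.8%, 16.9% and 16.2%.

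The 4 genes PGAM1, ENO1, LDHA and BNIP3 passed as lower at all 3 times, PKM passed as higher at 48 h and 96 h, and 15 passed at none. The counts moved with the scaling: with total-count scaling 3 listed genes were higher and 5 lower at 24 h, and 8 higher and 8 lower at 48 h. Over all genes that scaling gave 2477 higher and 810 lower at 24 h, against 1019 and 2465 with TMM, and 4731 and 2134 at 48 h, against 2928 and 3663. At 24 h leaving out replicate 1 labelled knockdown gave 20 lower listed genes, leaving out replicate 2 labelled knockdown gave 3 lower and 2 higher, leaving out wild-type replicate 1 gave 5 lower, and leaving out knockdown replicate 3 of 48 h gave 1 higher. At 48 h 7 were lower when knockdown replicate 1 or wild-type replicate 2 was left out, and 9 when it was knockdown replicate 2. At 96 h the 5 lower genes became 1 without knockdown replicate 1 or wild-type replicate 1 or 2, 2 without knockdown replicate 2, and 3 without knockdown replicate 3 or any one wild-type library of 48 h. The 1 higher gene became 3 without either library labelled knockdown at 24 h. Calls that held under every other setting and every left-out library were SLC16A3 at 24 h, LDHA, LDHB, HILPDA, PFKM, PKM and ALDOC at 48 h, and LDHA and PKM at 96 h. Each of the other calls was lost under at least 1 setting or left-out library.

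**Figure D3:**
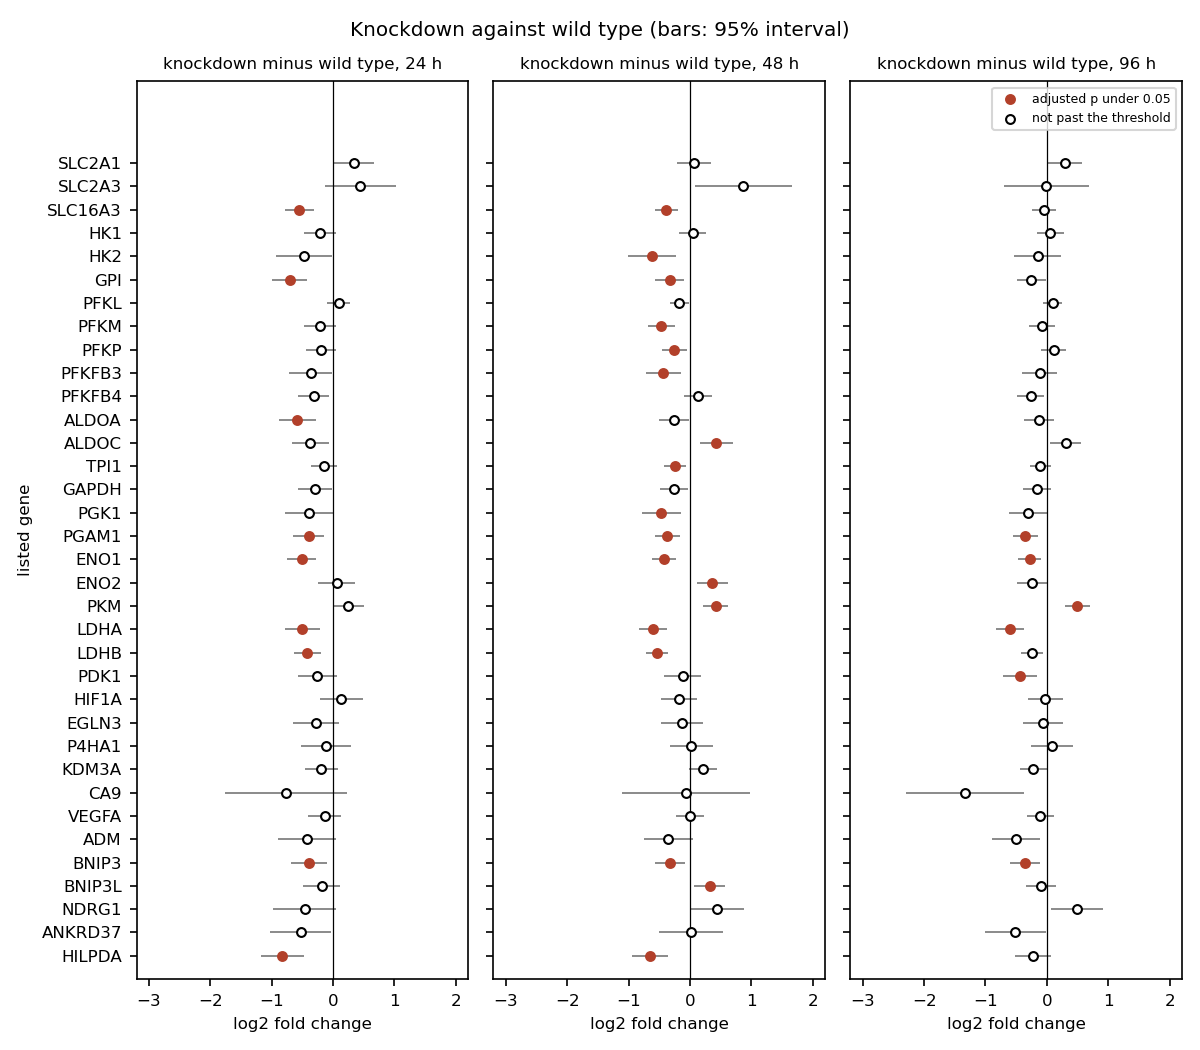
Log2 fold change of knockdown minus wild type with its 95% interval for each listed gene at 24 h, 48 h and 96 h, filled where the edgeR adjusted p is under 0.05. LDHA lies left of 0 and PKM right of 0 at each time, and most hypoxia genes in the lower part of the panels have intervals that cross 0.

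The lactate dehydrogenase subunits LDHA and LDHB and the lactate exporter SLC16A3 were lower at 24 h and 48 h in knockdown, and LDHA also at 96 h. NORAD was not lowered in the libraries labelled knockdown at 24 h. LDHA (chr11:18394388-18408425 on GRCh38), the subunit that favours lactate, had 1507 and 1163 CPM in the libraries labelled knockdown, against 1900.2 and 1882 CPM in wild type at 24 h. At 48 h, LDHA had 521, 532 and 684 CPM in knockdown libraries, against 881, 845 and 910.2 CPM in wild type. At 96 h, LDHA had 492, 509.7 and 547 CPM in knockdown libraries, against 795, 851 and 706 CPM in wild type. All knockdown libraries lay below all wild-type libraries of their time. Log2 fold changes were -0.50 ± 0.13 SE (adjusted p = 0.00874, edgeR) at 24 h, -0.60 ± 0.10 SE (adjusted p = 0.000181, edgeR) at 48 h and -0.60 ± 0.10 SE (adjusted p = 0.000562, edgeR) at 96 h, so that knockdown stood at 65.9% of wild type at 48 h and 65.8% at 96 h. The 24 h call was lost with total-count scaling (edgeR adjusted p = 0.0667), with abundance-dependent scaling (0.364), and without replicate 2 labelled knockdown (0.239) or either wild-type library (0.0518 and 0.0512). The promoter of LDHA is the first of those printed above.

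LDHB (chr12:21635342-21757857), the other subunit of the tetramer, had 533 and 513 CPM in the libraries labelled knockdown, against 690.2 and 710 CPM in wild type at 24 h. At 48 h, LDHB had 455, 489.7 and 576 CPM in knockdown libraries, against 728, 718 and 755 CPM in wild type. At 96 h, LDHB had 632, 614 and 572 CPM in knockdown libraries, against 687, 758 and 713 CPM in wild type. Groups did not overlap at any of the 3 times, and the difference at 96 h did not pass. The log2 fold changes were -0.42 ± 0.10 SE (adjusted p = 0.00421, edgeR), -0.53 ± 0.08 SE (adjusted p = 3.36e-05, edgeR) and -0.25 ± 0.08 SE (adjusted p = 0.0508, edgeR) at 24 h, 48 h and 96 h.

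SLC16A3 (chr17:82228397-82261129), the lactate exporter MCT4, had 909 and 801 CPM in the libraries labelled knockdown, against 1245 and 1257 CPM in wild type at 24 h. At 48 h, SLC16A3 had 319, 335 and 386 CPM in knockdown libraries, against 448, 472 and 438 CPM in wild type. At 96 h, SLC16A3 had 340.1, 385 and 399.5 CPM in knockdown libraries, against 421, 359 and 383 CPM in wild type. Groups were apart at 24 h and 48 h and overlapped at 96 h. Log2 fold changes were -0.55 ± 0.11 SE (adjusted p = 0.000989, edgeR), -0.38 ± 0.09 SE (adjusted p = 0.00168, edgeR) and -0.05 ± 0.09 SE (adjusted p = 0.832, edgeR) at the 3 times. PDK1, the kinase that blocks entry of pyruvate into mitochondria, had 34.3 and 23.5 CPM in the libraries labelled knockdown, against 33.7 and 35.3 CPM in wild type at 24 h. At 48 h, PDK1 had 5.75, 4.91 and 5.52 CPM in knockdown libraries, against 6.16, 6.14 and 5.27 CPM in wild type. Groups overlapped at both times. At 96 h, PDK1 had 8.29, 8.01 and 8.49 CPM in knockdown libraries, against 11.6, 12.3 and 9.64 CPM in wild type, with groups apart and a log2 fold change of -0.43 ± 0.12 SE (adjusted p = 0.0274, edgeR).

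In the lower part of glycolysis PGAM1 and ENO1 were lower in knockdown at all 3 times (at 24 h by label), PGK1 was lower at 48 h, and PKM was higher at 48 h and 96 h. PKM (chr15:72199029-72231822), pyruvate kinase, had 3970.5 and 3438 CPM in the libraries labelled knockdown, against 3204 and 3024 CPM in wild type at 24 h. At 48 h, PKM had 1984, 1942 and 2564 CPM in knockdown libraries, against 1624, 1645 and 1584 CPM in wild type. At 96 h, PKM had 2109.6, 2204 and 2229 CPM in knockdown libraries, against 1625, 1547 and 1478 CPM in wild type. Knockdown was above wild type in every library at each time. The log2 fold changes were 0.25 ± 0.11 SE (adjusted p = 0.145, edgeR), 0.42 ± 0.09 SE (adjusted p = 0.00141, edgeR) and 0.49 ± 0.09 SE (adjusted p = 0.00103, edgeR) at 24 h, 48 h and 96 h. Knockdown reached 134% of wild type at 48 h and 141% at 96 h.

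PGAM1, phosphoglycerate mutase, had 1026 and 827 CPM in the libraries labelled knockdown, against 1209 and 1232 CPM in wild type at 24 h. At 48 h, PGAM1 had 442, 453 and 567 CPM in knockdown libraries, against 638, 628 and 619 CPM in wild type. At 96 h, PGAM1 had 408, 433 and 426 CPM in knockdown libraries, against 562, 562 and 491 CPM in wild type. No library of knockdown reached wild type at any time. The log2 fold changes were -0.40 ± 0.11 SE (adjusted p = 0.018, edgeR), -0.37 ± 0.09 SE (adjusted p = 0.00449, edgeR) and -0.35 ± 0.09 SE (adjusted p = 0.0168, edgeR). Processed copies of this gene exist in the genome, and reads may have been divided between them and PGAM1.

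ENO1, the common enolase, had 2964 and 2554 CPM in the libraries labelled knockdown, against 4091 and 3767 CPM in wild type at 24 h. At 48 h, ENO1 had 1536, 1584 and 1902 CPM in knockdown libraries, against 2263, 2213 and 2246 CPM in wild type. At 96 h, ENO1 had 1614, 1680 and 1649.6 CPM in knockdown libraries, against 2057, 2086 and 1850.5 CPM in wild type. Groups were apart each time, and log2 fold changes were -0.51 ± 0.10 SE (adjusted p = 0.00168, edgeR), -0.42 ± 0.09 SE (adjusted p = 0.000719, edgeR) and -0.28 ± 0.09 SE (adjusted p = 0.0396, edgeR). ENO2, the neuronal enolase, ran the other way at 48 h, with 61.9, 59.4 and 53.5 CPM in knockdown libraries, against 43.5, 45.5 and 46.9 CPM in wild type. At 24 h, ENO2 had 384 and 281 CPM in the libraries labelled knockdown, against 334 and 305 CPM in wild type. At 96 h, ENO2 had 48.6, 52.01 and 64.5 CPM in knockdown libraries, against 70.2, 64.4 and 59.6 CPM in wild type. The ENO2 groups were apart at 48 h only among the 3 times, with log2 fold changes of 0.06 (edgeR adjusted p = 0.853), 0.36 (edgeR adjusted p = 0.0197) and -0.24 (edgeR adjusted p = 0.228).

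PGK1, phosphoglycerate kinase, had 448 and 343 CPM in the libraries labelled knockdown, against 525 and 511 CPM in wild type at 24 h. At 48 h, PGK1 had 118, 119 and 169 CPM in knockdown libraries, against 172, 187 and 201 CPM in wild type. At 96 h, PGK1 had 179, 180.2 and 181 CPM in knockdown libraries, against 218, 261 and 189 CPM in wild type. Knockdown was below wild type in each library at each time, and the difference passed at 48 h, with a log2 fold change of -0.47 ± 0.14 SE (adjusted p = 0.0211, edgeR). GAPDH did not pass at any time, with log2 fold changes of -0.29, -0.26 and -0.17 and edgeR adjusted p of 0.122, 0.0558 and 0.388.

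**Figure D4:**
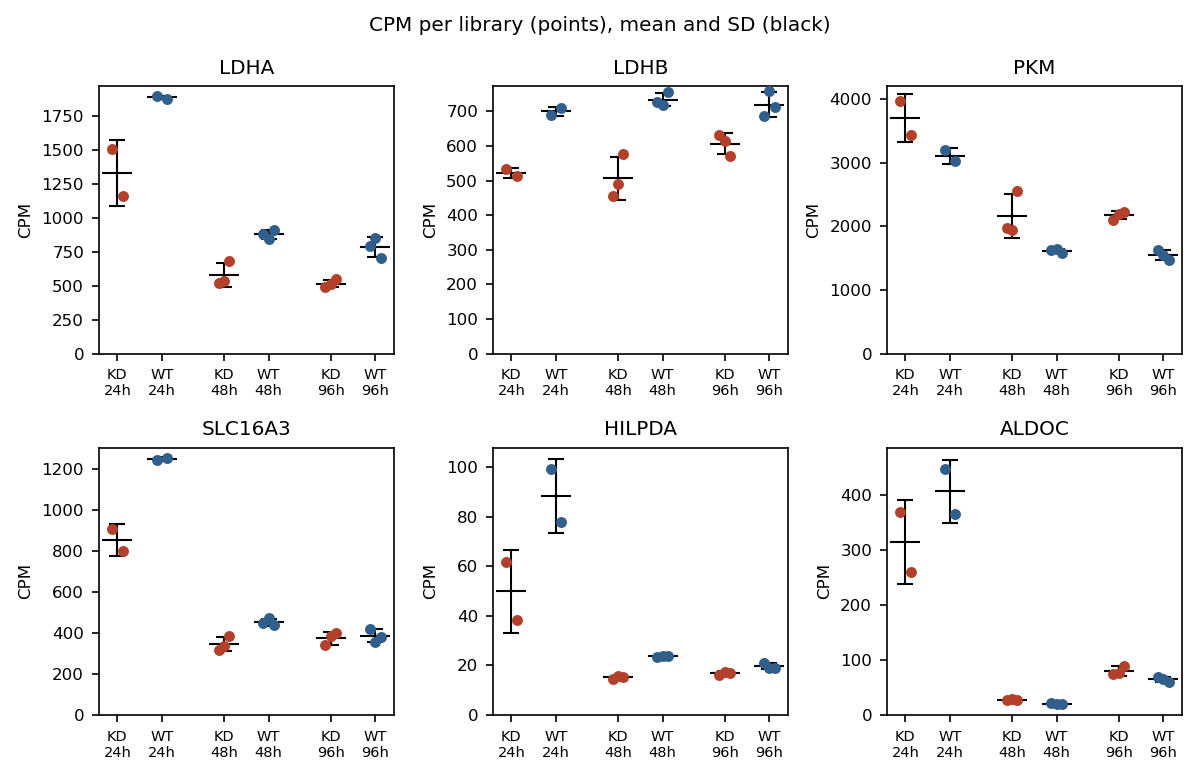
CPM (TMM library sizes) of LDHA, LDHB, PKM, SLC16A3, HILPDA and ALDOC in each library, by time with knockdown left of wild type, with the mean and SD of each group in black. LDHA in knockdown lies below wild type at each time and PKM above it. ALDOC overlaps between the groups at 24 h and in knockdown is above every wild-type library at 48 h and 96 h.

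In the upper part of glycolysis 2 of 11 genes were lower at 24 h in the libraries labelled knockdown, 6 were lower and ALDOC higher at 48 h in knockdown, and none passed at 96 h. These are 18.2%, 63.6% and 0% of the 11 genes, against 17.6%, 33.2% and 10.5% of all genes. At an unadjusted p under 0.05 in edgeR 1 was higher and 2 were lower at 96 h, and DESeq2 called ALDOC as higher (adjusted p = 0.0439). GPI, glucose phosphate isomerase, had 1268 and 899 CPM in the libraries labelled knockdown, against 1911 and 1632 CPM in wild type at 24 h. At 48 h, GPI had 400.3, 392 and 481 CPM in knockdown libraries, against 529.7, 544 and 525 CPM in wild type. At 96 h, GPI had 474, 511 and 514 CPM in knockdown libraries, against 639, 576 and 572 CPM in wild type. Groups never overlapped, with log2 fold changes of -0.71 ± 0.13 SE (adjusted p = 0.000748, edgeR), -0.33 ± 0.11 SE (adjusted p = 0.0218, edgeR) and -0.25 ± 0.11 SE (adjusted p = 0.148, edgeR). HK2, the inducible hexokinase, had 268 and 159.9 CPM in the libraries labelled knockdown, against 304 and 288 CPM in wild type at 24 h. At 48 h, HK2 had 33.2, 29.4 and 44.7 CPM in knockdown libraries, against 53.1, 57.5 and 53.2 CPM in wild type. At 96 h, HK2 had 43.1, 41.1 and 42.5 CPM in knockdown libraries, against 51.6, 43.9 and 45.3 CPM in wild type. Knockdown was below wild type throughout and the difference passed at 48 h, with log2 fold changes of -0.47 ± 0.21 SE (adjusted p = 0.159, edgeR), -0.61 ± 0.17 SE (adjusted p = 0.0177, edgeR) and -0.15 ± 0.17 SE (adjusted p = 0.716, edgeR). HK1, the constitutive hexokinase, did not pass at any time, with log2 fold changes between -0.21 and 0.05.

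Of the phosphofructokinases, PFKM, the muscle type, had 78.6, 66.5 and 99.2 CPM in knockdown libraries, against 112, 118 and 107 CPM in wild type at 48 h. Its values at 24 h were 98.6 and 93.9 CPM in the libraries labelled knockdown, against 109 and 114 CPM in wild type. At 96 h, PFKM had 124, 117 and 119.5 CPM in knockdown libraries, against 124, 129.9 and 129 CPM in wild type. The groups were apart at 24 h and 48 h but overlapped at 96 h, and the change passed at 48 h, with a log2 fold change of -0.46 ± 0.10 SE (adjusted p = 0.000963, edgeR). PFKP had 378, 359 and 478 CPM in knockdown libraries, against 499.6, 493 and 457 CPM in wild type at 48 h. At 24 h, PFKP had 738 and 617 CPM in the libraries labelled knockdown, against 764 and 792 CPM in wild type. At 96 h, PFKP had 354, 366 and 363 CPM in knockdown libraries, against 349, 326 and 325 CPM in wild type. PFKP was below wild type in each library at 24 h and above it at 96 h, neither of which passed, and its groups overlapped at 48 h, where it passed as lower with -0.25 ± 0.09 SE (adjusted p = 0.0369, edgeR). That call held in 3 of 9 other settings. PFKL did not pass at any time, with log2 fold changes from -0.17 at 48 h to 0.10 at 96 h.

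PFKFB3 had 36.1, 28 and 47.3 CPM in knockdown libraries, against 51.7, 50.3 and 48.0 CPM in wild type at 48 h. At 24 h, PFKFB3 had 42.6 and 38.2 CPM in the libraries labelled knockdown, against 51.8 and 52.1 CPM in wild type. At 96 h, PFKFB3 had 36.3, 39.2 and 38.5 CPM in knockdown libraries, against 44.9, 39.8 and 39.0 CPM in wild type. Groups were apart at 24 h and at 48 h, and overlapped at 96 h. The difference passed at 48 h, with a log2 fold change of -0.43 ± 0.13 SE (adjusted p = 0.0147, edgeR). PFKFB4 did not pass at any of the 3 times.

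ALDOA had 3014 and 2255 CPM in the libraries labelled knockdown, against 4270.4 and 3604 CPM in wild type at 24 h, with a log2 fold change of -0.58 ± 0.14 SE (adjusted p = 0.00503, edgeR). At 48 h, ALDOA had 1124, 1141 and 1368 CPM in knockdown libraries, against 1461, 1494 and 1384 CPM in wild type. At 96 h, ALDOA had 1205, 1379.8 and 1476 CPM in knockdown libraries, against 1633, 1442 and 1369.6 CPM in wild type. Groups were apart at 24 h and 48 h and overlapped at 96 h. ALDOC (chr17:28573115-28577264) had 369 and 259.6 CPM in the libraries labelled knockdown, against 447 and 366 CPM in wild type at 24 h. At 48 h, ALDOC had 26.6, 28.7 and 27.8 CPM in knockdown libraries, against 22.3, 20.0 and 19.3 CPM in wild type. At 96 h, ALDOC had 74.6, 75.4 and 89.7 CPM in knockdown libraries, against 69.2, 64.7 and 60.0 CPM in wild type. The ALDOC groups overlapped at 24 h, and knockdown was above wild type in each library at 48 h and 96 h. Its log2 fold changes were -0.37 ± 0.14 SE (adjusted p = 0.0731, edgeR), 0.43 ± 0.12 SE (adjusted p = 0.0106, edgeR) and 0.31 ± 0.11 SE (adjusted p = 0.104, edgeR).

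TPI1 had 802, 905 and 967 CPM in knockdown libraries, against 1041, 1047 and 1079 CPM in wild type at 48 h, with groups apart and a log2 fold change of -0.24 ± 0.08 SE (adjusted p = 0.0192, edgeR). With abundance-dependent scaling the TPI1 value at 48 h turned to 0.0074 and that at 24 h to 0.2104, which passed as higher. With total-count scaling the 24 h value was 0.0660 and did not pass. At 24 h, TPI1 had 1597 and 1426 CPM in the libraries labelled knockdown, against 1703 and 1633 CPM in wild type. At 96 h, TPI1 had 768, 826 and 854 CPM in knockdown libraries, against 896, 897 and 841 CPM in wild type. The groups were apart at 24 h and overlapped at 96 h. The glucose transporters SLC2A1 and SLC2A3 did not pass at any time. SLC2A3 at 48 h had 1.66, 1.98 and 1.58 CPM in knockdown libraries, against 1.37, 0.622 and 0.910 CPM in wild type, and its log2 fold change was 0.87 ± 0.36 SE (adjusted p = 0.0786, edgeR) with groups apart. SLC2A1 log2 fold changes were 0.34, 0.07 and 0.29, and SLC2A1 passed as higher at 24 h with total-count scaling (0.54), upper-quartile scaling (0.45) and abundance-dependent scaling (0.59).

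Of the 12 hypoxia genes outside glycolysis, 2, 3 and 1 passed between knockdown and wild type at 24 h, 48 h and 96 h, and 11 had passed between 48 h and 24 h in wild type. The shares under knockdown were 16.7%, 25% and 8.33%, beside 17.6%, 33.2% and 10.5% of all genes. For a list of 12 genes these are close to the all-gene shares. The share in time, 91.7%, stood beside 44.6% of all genes. HIF1A did not pass, with log2 fold changes of 0.14 ± 0.16, -0.18 ± 0.13 and -0.03 ± 0.13 (SE) at the 3 times. Nor did the hydroxylases and demethylase EGLN3, P4HA1 and KDM3A, whose log2 fold changes lay between -0.27 and 0.21.

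HILPDA (chr7:128455849-128458418), a small protein that coats lipid droplets, had 61.8 and 38.2 CPM in the libraries labelled knockdown, against 99.2 and 77.9 CPM in wild type at 24 h. At 48 h, HILPDA had 14.4, 15.9 and 15.2 CPM in knockdown libraries, against 23.3, 24.0 and 24.0 CPM in wild type. At 96 h, HILPDA had 16.04, 17.5 and 17.0 CPM in knockdown libraries, against 21.0, 19.1 and 18.8 CPM in wild type. Knockdown was below wild type in each library at each time, and log2 fold changes were -0.83 ± 0.16 SE (adjusted p = 0.00126, edgeR), -0.65 ± 0.13 SE (adjusted p = 0.00123, edgeR) and -0.22 ± 0.13 SE (adjusted p = 0.375, edgeR).

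BNIP3, a receptor that marks mitochondria for removal, had 136 and 104 CPM in the libraries labelled knockdown, against 149 and 164 CPM in wild type at 24 h. At 48 h, BNIP3 had 30.8, 29.5 and 38.0 CPM in knockdown libraries, against 43.3, 40.6 and 39.1 CPM in wild type. At 96 h, BNIP3 had 37.1, 40.0 and 41.7 CPM in knockdown libraries, against 54.0, 54.4 and 43.7 CPM in wild type. Groups were apart at all 3 times, with log2 fold changes of -0.39 ± 0.13 SE (adjusted p = 0.0499, edgeR), -0.33 ± 0.11 SE (adjusted p = 0.0311, edgeR) and -0.36 ± 0.11 SE (adjusted p = 0.0434, edgeR). The call at 24 h was at the threshold and held in 1 of 8 other settings and 4 of 16 fits without 1 library. The 48 h call held in 3 of 9 and 12 of 16, and that at 96 h in 7 of 9 and 5 of 16. BNIP3L, its relative NIX, ran the other way at 48 h with 24.1, 23.4 and 30.2 CPM in knockdown libraries, against 21.0, 20.5 and 20.7 CPM in wild type, a log2 fold change of 0.32 ± 0.11 SE (adjusted p = 0.0378, edgeR). At 24 h, BNIP3L had 120.2 and 86.4 CPM in the libraries labelled knockdown, against 114 and 121 CPM in wild type. At 96 h, BNIP3L had 45.5, 47.4 and 49.3 CPM in knockdown libraries, against 50.3, 55.6 and 45.5 CPM in wild type. BNIP3L groups overlapped at 24 h and 96 h.

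The other hypoxia-induced genes, CA9, VEGFA, ADM, NDRG1 and ANKRD37, did not pass at any time. NDRG1 had 118, 121 and 172 CPM in knockdown libraries, against 108, 107 and 87.9 CPM in wild type at 48 h, with groups apart and a log2 fold change of 0.45 ± 0.19 SE (adjusted p = 0.0934, edgeR), and at 96 h it was also above wild type in each library, with 0.48 ± 0.19 SE (adjusted p = 0.146, edgeR). ADM was below wild type in each library at each time, with log2 fold changes of -0.43 ± 0.21 SE (adjusted p = 0.215, edgeR), -0.35 ± 0.18 SE (adjusted p = 0.151, edgeR) and -0.51 ± 0.18 SE (adjusted p = 0.0987, edgeR). CA9 at 96 h was below wild type in each library, with 0.391, 0.400 and 1.10 CPM in knockdown libraries, against 2.04, 1.57 and 1.13 CPM in wild type, but at these low counts its log2 fold change was -1.34 ± 0.43 SE (adjusted p = 0.0627, edgeR). VEGFA had a log2 fold change of -0.0048 at 48 h, with a 95% interval of -0.23 to 0.22.

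Whether knockdown minus wild type differed between the 3 times was tested directly, and 2 of 35 listed genes passed, when 9.44% of all genes did. NORAD was not lowered in the libraries labelled knockdown at 24 h. The 24 h values are thus differences by label and are not shown to be effects of depletion. ALDOC (edgeR adjusted p = 0.0169) had log2 fold changes of -0.37 at 24 h, 0.43 at 48 h and 0.31 at 96 h. SLC16A3 (edgeR adjusted p = 0.0414) had -0.55, -0.38 and -0.05 at these times. LDHA (edgeR adjusted p = 0.891), PGAM1 (0.975), BNIP3 (0.972) and PKM (0.506) did not pass, which does not show that their differences were equal. LDHA, PGAM1 and BNIP3 passed as lower at 24 h also, where NORAD was not lowered. Whether these differences came from depletion or stood between the lines without it was not tested. The ALDOC test was lost when replicate 2 labelled knockdown at 24 h was left out (edgeR adjusted p = 0.0967) and likewise for wild-type replicate 1 at 24 h (0.0994). The SLC16A3 test held in 1 of the 7 other settings tried. The count of 2 became 10 without replicate 1 labelled knockdown at 24 h, 9 without knockdown replicate 3 at 48 h and 0 without wild-type replicate 1 at 24 h. It became 1 without replicate 2 labelled knockdown or wild-type replicate 2 at 24 h, any 1 wild-type library at 48 h, knockdown replicate 2 at 96 h, or wild-type replicate 2 or 3 at 96 h.

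Isoenzyme shares were computed from TPM. Of the summed TPM of HK1 and HK2, HK2 held 20.6% in knockdown (19.7% to 21.5%) and 28.9% in wild type (27.8% to 29.4%) at 48 h, and 48.6% in the libraries labelled knockdown and 53.7% in wild type at 24 h. Of LDHA and LDHB, LDHA held 45.4% in knockdown (43.0% to 48.2%) and 51.96% in wild type (49.9% to 53.8%) at 96 h, 71.4% in the libraries labelled knockdown and 72.7% in wild type at 24 h, and 50.6% in knockdown and 53.0% in wild type at 48 h, where the groups overlapped. At 96 h HK2 held 20.5% in knockdown and 22.8% in wild type. The HK2 shares were apart between the groups at each time, and the LDHA shares at 96 h alone. However, 3 libraries against 3 cannot give an exact permutation p below 0.1, nor 2 against 2 one below 0.333. ALDOC held 7.82% of aldolase TPM in the libraries labelled knockdown and 6.84% in wild type at 24 h, and 1.64% in knockdown and 1.03% in wild type at 48 h. PFKFB4 held 68.7% of PFKFB3 and PFKFB4 in the libraries labelled knockdown and 68.6% in wild type at 24 h, 29.7% in knockdown and 21.5% in wild type at 48 h, and 26.7% in knockdown and 28.5% in wild type at 96 h. The PFKFB4 shares were apart at 48 h and overlapped at 24 h and 96 h. Within the enolases, the ENO2 share was apart at 24 h and 48 h. Within the phosphofructokinases, PFKP was apart at 24 h and 96 h and PFKL at 24 h. The share of SLC2A3 in the TPM of SLC2A1 and SLC2A3 was apart at 48 h.

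Pyruvate kinase RNA is spliced to hold either the exon of the M1 form, found in muscle and brain, or that of the M2 form, found in dividing and cancer cells. Transcripts were summed by whether they hold the M1 exon (chr15:72203022-72203188) or the M2 exon (chr15:72202454-72202620, both GRCh38), a choice made after the data were seen. The M1 form was 4.22% and 4.56% of the sum in the libraries labelled knockdown, against 6.48% and 6.49% in wild type, at 24 h. At 48 h the means were 10.3% in knockdown and 10.8% in wild type and the groups overlapped (exact permutation p = 0.7, two-sided). At 96 h the mean was 10.9% ± 0.599 in knockdown and 12.6% ± 0.335 in wild type (SD, n = 3 each), and the groups were apart (exact permutation p = 0.1, two-sided, the smallest the design allows). The M2 form thus held most of the summed M1 and M2 counts in each group, and PKM transcripts with neither exon were left out of the sum.

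**Figure D5:**
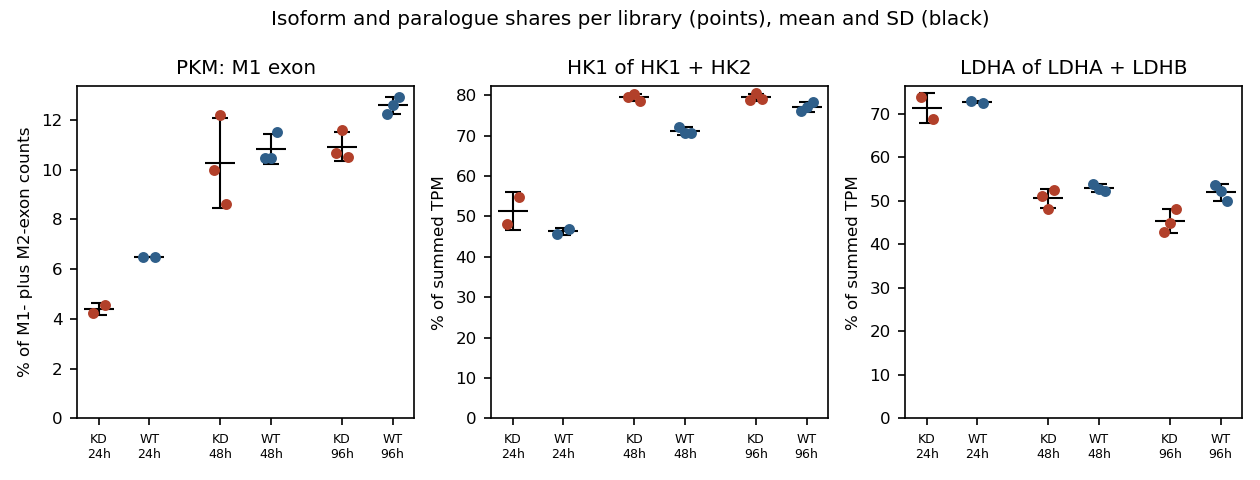
Shares are per library and by time, with knockdown left of wild type. The panels give the M1 share of the summed M1 and M2 counts of PKM. Next come the share of HK1 in the TPM of HK1 and HK2, and that of LDHA in the TPM of LDHA and LDHB. Black marks are the mean and SD. The M1 and HK1 shares are lowest and the LDHA share highest at 24 h.

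Transcript usage, the share of each transcript within its gene, was tested for 34 listed genes with edgeR's diffSpliceDGE (Simes test, Benjamini-Hochberg adjusted). It passed for 1 gene at 24 h (ALDOA), when 1.56% of 12784 genes did. At 48 h GPI, TPI1, PKM, LDHA and VEGFA passed, 5 genes, when 4.07% of all genes did. At 96 h GAPDH, PKM, P4HA1 and ANKRD37 passed, 4 genes, when 1.53% did. VEGFA was the listed gene whose call at 48 h also held with transcripts of at least 10% of their gene (adjusted p = 8.91e-06 with edgeR).

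VEGFA-206, a coding transcript, held 23.0%, 19.5% and 15.99% of VEGFA counts in knockdown, against 0%, 0.0700% and 0% in wild type, at 48 h. VEGFA-204, with a longer coding sequence, held 0.412%, 6.09% and 18.7% in knockdown, against 30.5%, 36.3% and 40.9% in wild type. The groups were apart for both transcripts. At 24 h, however, VEGFA-206 held 11.8% to 20.1% in the 4 libraries of both groups, and at 96 h it was 0%, 10.2% and 0% in knockdown, against 1.40%, 12.9% and 10.6% in wild type. Overlapping transcripts share reads that kallisto divides by a model, and a share of 0 can be a failed estimate. PKM-224, annotated as a target of nonsense-mediated decay, held 0.731%, 0.529% and 3.34% of PKM counts in knockdown, against 7.85%, 7.68% and 3.64% in wild type, at 48 h, with groups apart. At 24 h PKM-224 held 11.1% and 7.28% in the libraries labelled knockdown, against 9.13% and 11.8% in wild type. At 96 h it held 15.4%, 13.5% and 12.8% in knockdown, against 14.9%, 14.9% and 14.9% in wild type, and the groups overlapped at both times. The PKM usage call at 96 h nevertheless had the lowest adjusted p of the listed genes (3.47e-37, Simes test with edgeR). It held with the gene-level F test (5.16e-26) and the replicate block (1.12e-21). The call was lost with transcripts of at least 10% of their gene, and the transcript behind it is not reported here.

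Neighbouring pathways were counted beside the listed genes, from lists of other genes. The shares to read them against are those of all genes, 12.4%, 18.5% and 5.15% lower and 5.14%, 14.8% and 5.35% higher at 24 h, 48 h and 96 h. These further lists were counted with TMM scaling only and not under the other settings. With total-count scaling the all-gene split turned to 2477 higher and 810 lower at 24 h, and 4731 and 2134 at 48 h. Of 10 genes of the pentose phosphate pathway, which branches from glucose 6-phosphate, 5 were lower and 1 higher at 24 h in the libraries labelled knockdown, 7 lower and 1 higher at 48 h, and 1 lower and 2 higher at 96 h. The shares that passed in either direction were 60%, 80% and 30%, against 17.6%, 33.2% and 10.5% of all genes. RPIA, ribose phosphate isomerase, had log2 fold changes of -0.71 ± 0.10 SE (adjusted p = 7.73e-05, edgeR) at 24 h and -1.06 ± 0.08 SE (adjusted p = 1.3e-08, edgeR) at 48 h. Of 22 genes of the tricarboxylic acid cycle 9, 11 and 2 were lower and 0, 1 and 1 higher at the 3 times, 40.9%, 54.5% and 13.6% in either direction. Of 13 genes of pyruvate dehydrogenase and its control 3, 5 and 2 were lower and 0, 1 and 0 higher, 23.1%, 46.2% and 15.4% in either direction. DLAT, a core subunit of the complex, had -0.72 ± 0.12 SE at 48 h (adjusted p = 0.000183, edgeR). SLC16A1, the lactate transporter MCT1, was lower at 48 h, with -1.005 ± 0.132 SE (adjusted p = 3.36e-05, edgeR).

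A further 30 hypoxia-induced genes gave 7 lower and 3 higher at 24 h, 7 lower and 6 higher at 48 h, and 3 lower and 2 higher at 96 h, which is 33.3%, 43.3% and 16.7%, against 17.6%, 33.2% and 10.5% of all genes. In wild type 26 of these 30 fell at 48 h relative to 24 h and 1 rose, with a median log2 fold change of -1.346, when 22.1% of all genes fell and 22.5% rose. BHLHE40, a circadian and hypoxia repressor, fell with a log2 fold change of -4.53 ± 0.16 SE (adjusted p = 2.07e-12, edgeR) there and rose with 2.35 ± 0.14 SE (adjusted p = 1.33e-09, edgeR) between 48 h and 96 h. The 22 genes of the tricarboxylic acid cycle gave 6 lower and 2 higher at 48 h relative to 24 h, with a median of -0.103, so that 36.4% passed, against 44.6% of all genes. Of 8 genes of oxygen sensing and the HIF subunits 4 were lower and 1 higher there, or 62.5%. Of 26 further glycolytic isoenzymes and regulators, 18 could be tested. None passed at 24 h, where 2 were higher and 2 lower at an unadjusted p under 0.05 in edgeR. At 48 h 2 were higher and 2 lower, and at 96 h 1 was higher. The shares were 0%, 22.2% and 5.56%, beside 17.6%, 33.2% and 10.5% of all genes. Of 11 tested genes of glycogen metabolism 0, 1 and 1 were higher and 2, 4 and 0 lower at the 3 times, or 18.2%, 45.5% and 9.09%.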

How the data were processed

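The authors deposited 1 table of estimated counts per transcript for the 16 libraries. Kallisto, DESeq2 and the build hg19 are listed in the submitters' processing notes without role or version. kallisto divides reads between transcripts that share sequence, so near-identical copies are uncertain, and whether counting used strand is not given.

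Of 166096 transcripts, 156584 matched GENCODE 29 by ID and were summed to 31496 genes. The 9512 unmatched transcripts (2.75% to 3.40% of counts per library) were left out. The estimated counts were whole numbers as deposited. Genes passing edgeR's filterByExpr (19836) were fitted with edgeR 4.0.16 (glmQLFit with robust estimation and glmQLFTest, R 4.3.3), TMM scaling and 6 group means (10 residual degrees of freedom). Benjamini-Hochberg adjusted p under 0.05 over all tested genes was called, and the same fit gave the comparison of knockdown effects between times. The scripts were tested on simulated data. TPM was recomputed from transcript counts and lengths. Alternatives were abundance-dependent (limma 3.58.1), upper-quartile and total-count scaling, DESeq2 1.42.0, no filter, a filter at 10 CPM, the replicate number as a block, fits on the compared groups alone, and leaving out each library. Leaving out the 24 h libraries was added after seeing the data.

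The listed genes and the further lists were chosen with earlier results of these data known. All 35 listed genes could be named. A listed gene has its value in every library where it passed in at least 1 knockdown comparison, and from each further list at most 3 passing genes of lowest p per comparison could be named.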

Additional observations from a re-analysis of the deposited data

Results flagged for a closer look

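Knockdown minus wild type differed between times for 2 of 35 listed genes (5.71%), against 9.44% of all genes. The test was of the difference itself (edgeR quasi-likelihood test over 24 h, 48 h and 96 h). For SLC16A3 the adjusted p was 0.0414, with knockdown minus wild type at -0.55, -0.38 and -0.05 on the log2 scale at the 3 times. For ALDOC it was 0.0169, with -0.37, 0.43 and 0.31. The 24 h values come from libraries labelled knockdown in which NORAD was not lowered. The SLC16A3 call held in 1 of 7 other settings and in 6 of 16 fits without 1 library. The ALDOC call held in 7 of 7 and 14 of 16.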

How the results depend on the processing

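Counts below are listed genes higher and lower. At 24 h, 0 and 9 became 3 and 5 with total-count scaling, 2 and 8 with upper-quartile scaling, 4 and 3 with abundance-dependent scaling, 1 and 9 with DESeq2, 0 and 7 with no filter, 3 and 8 at 10 CPM, 0 and 11 with the replicate block, and 1 and 6 with only the compared groups. Leaving out 1 library gave 0 to 2 and 3 to 20. At 48 h, 4 and 14 became 8 and 8, 8 and 10, 6 and 6, 5 and 17, 3 and 14, 8 and 10, 3 and 13, and 3 and 11 in the same order, and 6 and 16 without the 24 h libraries, with 3 to 6 and 7 to 18 leaving out 1 library. At 96 h, 1 and 5 became 1 and 7, 1 and 6, 1 and 6, 2 and 9, 1 and 3, 2 and 6, 1 and 2, 4 and 10, and 2 and 5, with 1 to 3 and 1 to 7. In wild type at 48 h against 24 h, 0 and 31 kept 31 lower except 30 at 10 CPM, where CA9 was not tested, and 1 was higher with DESeq2, with only the compared groups, and without knockdown replicate 2 or 3 at 48 h (0 to 1). At 96 h against 48 h, 13 and 3 became 20 and 2, 18 and 2, 21 and 1, 15 and 4, 10 and 2, 20 and 1, 14 and 2, 20 and 9, and 18 and 3, with 8 to 18 and 1 to 6. The 2 differences between times became 5, 4, 4, 5, 1, 5 and 2, with 0 to 10. Transcript usage calls of 1, 5 and 4 became 0, 4 and 1 with the gene-level F test, 0, 1 and 0 with transcripts of at least 10%, and 0, 3 and 2 with the replicate block, with 0 to 1, 4 to 9 and 1 to 4 leaving out 1 library. Among single-gene values that passed in the original fit or in the alternative, 6 changed sign, all with abundance-dependent scaling: TPI1 at 24 h (0.2104) and 48 h (0.0074), and, at 96 h against 48 h in wild type, PKM (0.2177), TPI1 (0.0031), LDHB (0.2294) and SLC16A3 (0.0258). Among values that passed in neither, signs also changed 13 times with total-count scaling (TPI1 at 24 h and VEGFA at 48 h among them), 13 with abundance-dependent scaling, 8 with upper-quartile scaling, 8 at 10 CPM, 48 over all settings, and 41 leaving out 1 library. For deviations from the group, same-numbered libraries gave r of -0.0273 (24 h), -0.0962, -0.152, -0.263 (48 h), -0.0388, 0.00133, 0.062 (96 h). With 2 libraries a group, differently numbered ones must give the opposite sign (0.0273). Deviations within a group of 3 also constrain each other, so these values cannot decide whether the numbers pair libraries. Over all genes, the calls at 24 h split 1730 higher and 1489 lower with upper-quartile scaling and 1345 and 1394 with abundance-dependent scaling, and at 48 h 4453 and 2476, and 2794 and 2785. The all-gene median moved to 0.187 at 24 h and 0.203 at 48 h with total-count scaling. The causes of these shifts were not tested. With 2 libraries a group at 24 h and low counts for CA9 and SLC2A3, small differences were not detectable.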
